A study of Mus musculus with 15 samples.

Results

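The genes described here are those of glutathione synthesis and use, the thioredoxin and peroxiredoxin systems, and the antioxidant enzymes beside them. Members were taken by gene symbol: every gene named Gst (classes a, k, l, m, o, p, s, t and z), Gpx, Prdx, Txn, Msra or Msrb, the superoxide dismutases Sod1 to Sod3, and Cat, Gclc, Gclm, Gsr, Gss, Glrx, Nqo1, Hmox1, Hmox2, Nfe2l2, Keap1 and Srxn1. This gave 59 of the 14615 genes in the table, and all 59 passed the filter on low values and were tested. Expression had been measured by RNA-seq in 15 libraries of wild type C57BL/6NTac mice. Lenses were dissected at 4 stages spaced 2 days apart, the first at E10.5 (embryonic day) and the last at E16.5, with 3 libraries a stage made from pools of 50, 29, 18 and 17 lenses in turn. The reference was 3 libraries of whole embryos, labelled as ages E10.5 to E12.5 and called whole body here. Whether each of these libraries mixed embryos of several days is not stated in the labels. No group carried a transgene, a deletion or a treatment. The labels call the libraries biological replicates but do not tie them to separate litters, so the p-values measure the spread between these pools.

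Glutathione is a tripeptide that is made in 2 steps: glutamate-cysteine ligase (Gclc is its catalytic and Gclm its modifier subunit) joins glutamate to cysteine, and glutathione synthetase (Gss) adds glycine. Glutathione peroxidases and peroxiredoxins reduce peroxides, S-transferases attach glutathione to reactive compounds, and glutathione reductase and the thioredoxin reductases bring the used carriers back to their reduced form with NADPH. The lens is known for holding glutathione at unusually high concentration, and loss of that reduced pool is a known feature of cataract, since lens fibre cells keep their crystallins for life. Many of the genes are known targets of the transcription factor NRF2 (Nfe2l2), which KEAP1 holds in check.

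The tissue labels were checked first. Levels are given as FPKM (fragments per kilobase of transcript, scaled to library size), the unit taken here for the deposited values. The summed level of 16 crystallin genes was 355 to 477 FPKM over the E10.5 libraries, 63641 to 125708 for E12.5, 323974 to 419317 for E14.5, 399655 to 607078 for E16.5 and 7.54 to 8.39 in whole body. Cryaa was listed at 0 in E14.5 replicates 2 and 3 and E16.5 replicates 1 and 2, beside 111417 and 140912 FPKM in the remaining libraries. Cryba1 was at 0 in E16.5 replicates 1 and 2, beside 101407. The late sums keep these 0 values, so their ranges partly show missing values. Sums of markers of other cells were higher in the E10.5 than in the E16.5 lens libraries: 12 erythroid markers summed to 2231 to 5113 FPKM at E10.5 and 349 to 675 at E16.5 (7593 to 9709 in whole body), 12 macrophage markers to 144 to 166 and 8.35 to 17.9 (41.2 to 44.8), and 10 periocular mesenchyme markers to 292 to 2755 and 17.9 to 31.8 (1517 to 1679). The erythroid genes did not move together: 8 were called lower and 2 higher at E16.5 against E10.5. The globin Hbb-y went from 811 to 1884 FPKM at E10.5 to 1.16 to 2.63 at E16.5, and Hbb-bs from 2.87 to 9.98 to 188 to 341. The erythroid sum thus depends on which globins are made and does not give the number of red cells. At E16.5, 1 of the 12 macrophage genes and none of the erythroid or mesenchyme genes was at 0 in all 3 libraries. The total read depth is unknown. On transcripts of at most 230 bases 1 fragment was worth 0.0373 to 0.0401 FPKM in whole body and 0.1054 to 0.1127 at E16.5, so the late lens libraries were relatively shallower. In E16.5 replicate 1 that step was 0.1055, and Krt5, Apoa1, Tyrobp and Neurod4, which have longer transcripts, each read 0.11 FPKM. The deposited values may thus not be divided by transcript length, and ranks, sums and shares across genes may favour long transcripts. Whole body was younger than the E14.5 and E16.5 lens, so age and tissue cannot be told apart in those comparisons. In bulk tissue, fewer cells of a type and less RNA per cell cannot be told apart either.

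The summed level of the 59 genes was higher at the later lens stages. It was 3565 ± 264 FPKM at E10.5, then 4246 ± 41.6, 5658 ± 63.7 and 6478 ± 363 at the following stages, and 3279 ± 138 in whole body (mean ± SD, n = 3). The total FPKM of the libraries rose as well, from 707562 in the lowest to 1629915 in the highest, and the 59 genes made up 0.477% of it at E10.5 and 0.425% at E16.5. The late totals keep the 0 values of Cryaa and Cryba1, which the next share leaves out. Of the FPKM outside the crystallins the 59 genes made up 0.477% at E10.5 and 0.623% at E16.5. Within the set, glutathione synthesis and reduction went from 119 ± 2.28 FPKM at E10.5 to 1041 ± 64.0 at E16.5 and the S-transferases from 253 ± 21.5 to 1207 ± 86.2. The peroxidases went from 416 ± 35.9 to 931 ± 65.7. The 16 thioredoxin family genes stood at 1069 ± 84.9 and 1048 ± 24.4 FPKM, and the 7 peroxiredoxin and sulfiredoxin genes at 1219.9 ± 105 and 1215 ± 51.0. The highest member changed too: it was Prdx2 at E10.5, at E12.5 and in whole body, and Gss at E14.5 and E16.5. In the deposited values Gss was the 144th highest of all genes at E16.5.

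**Figure D1:**
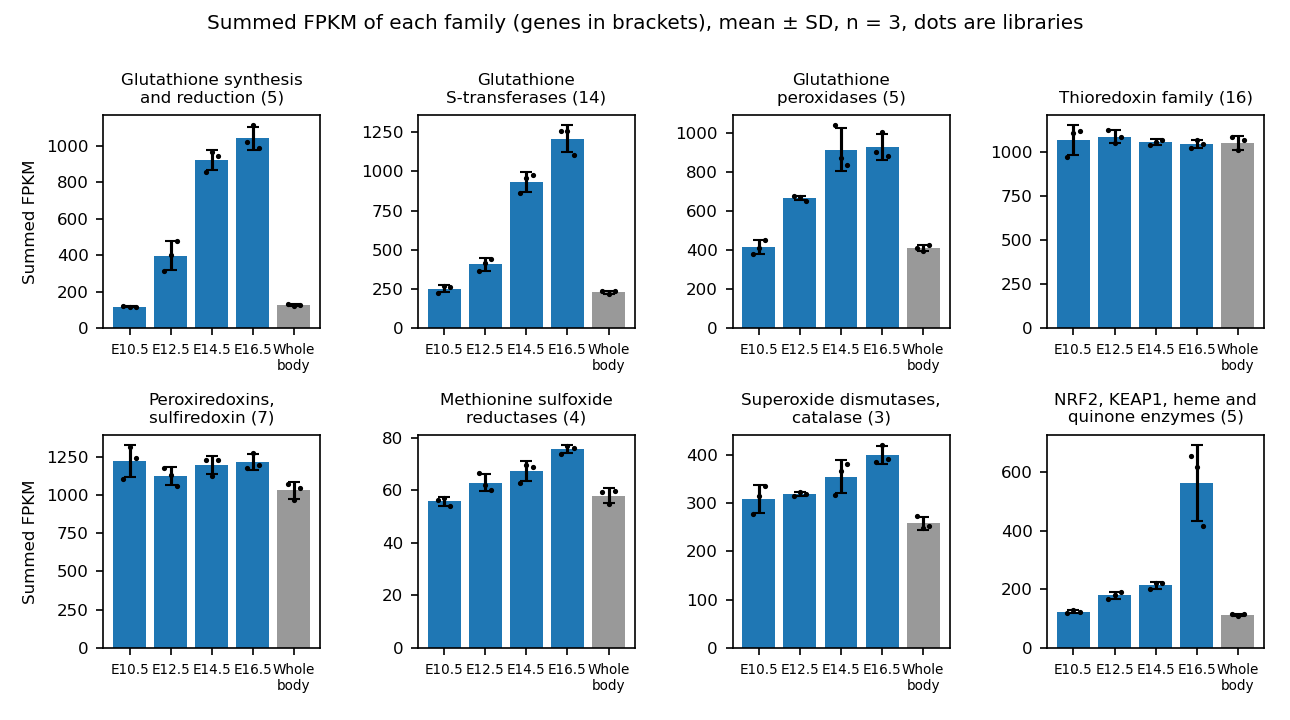
Summed FPKM (linear axis from 0) of the 8 families in the 4 lens stages (blue) and whole body (grey). Bars are means, whiskers SD and dots the 3 libraries. The bars for glutathione synthesis, S-transferases and peroxidases climb between E10.5 and E14.5, while the thioredoxin family bars lie between 1048 and 1089.9 FPKM. The last panel steps up at E16.5, where Hmox1 alone was at 376 ± 124 FPKM.

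Against whole body, limma (adjusted p under 0.05 over all 14532 genes tested) called 16 members higher and 11 lower at E10.5, where 24.6% and 31.2% of all genes were called. At E12.5 the counts were 27 higher and 17 lower (32.3% and 37.1% of all genes), at E14.5 31 and 18 (35.7% and 42.6%) and at E16.5 34 and 17 (36.8% and 43.4%). The median log2 fold change of the 59 members at E16.5 was 0.51, beside -0.11 over all genes. These 4 comparisons share the whole-body libraries. Requiring a 2-fold difference left 3 members higher and none lower at E10.5 (6.48% and 13.6% of all genes), 11 and 6 at E12.5 (11.0% and 17.7%), 13 and 9 at E14.5 (16.4% and 25.4%) and 15 and 8 at E16.5 (18.5% and 26.2%). The split of higher and lower calls depended on the scale. Besides the deposited FPKM, 3 other scalings were tried: quantile normalization, upper quartile scaling, and a common total without the 16 crystallin genes, which take a large part of the late lens signal. The last moved the median of all genes by -0.48 at E16.5, to -0.58, and 20 members were then higher and 26 lower. In all 4 scalings 20 members were higher and 13 lower. Shares of all genes called were taken on the deposited scale only, so member counts from the other scalings cannot be set against them.

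Along the lens stages, 25 members rose and 13 fell from E10.5 to E12.5 (29.5% and 26.0% of all genes called). From E12.5 to E14.5 22 rose and 8 fell (21.2% and 22.4%), or 11 and 28 with the crystallins left out. From E14.5 to E16.5 10 rose and 1 fell (5.97% and 4.03%). Between the ends, E16.5 against E10.5, 33 were higher and 13 lower (37.2% and 36.7%), or 18 and 26 with the crystallins left out. That setting moved the median of all genes too, by -0.21 from E12.5 to E14.5 and by -0.38 between the ends. It has no share of all genes called beside it. With the 2-fold minimum the 3 steps kept 8 rising and 5 falling members (8.53% and 7.34% of all genes), 4 and 2 (4.09% and 7.78%), and 2 and 0 (1.60% and 0.289%), and the ends 15 and 7 (17.2% and 18.2%). A moderated F test over the 4 stages called 50 of the 59 members, beside 77.3% of all genes. The 9 without a call were Gsr, Gstk1, Msrb1, Nqo1, Prdx2, Prdx4, Srxn1, Txndc11 and Txndc16. The 9 markers listed for hepatocytes summed to 563, 23.1 and 1066 FPKM in E10.5 replicates 1 to 3. Afp was at 340, 6.91 and 625 FPKM there, while Alb of the same list was at 0.35, 0 and 0.12 (33.7 to 44.6 in whole body). An alternative added after seeing the data left out replicates 1 and 3. It kept 1 library at E10.5, assumed to vary like the other groups, so no counts are given from it.

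**Figure D2:**
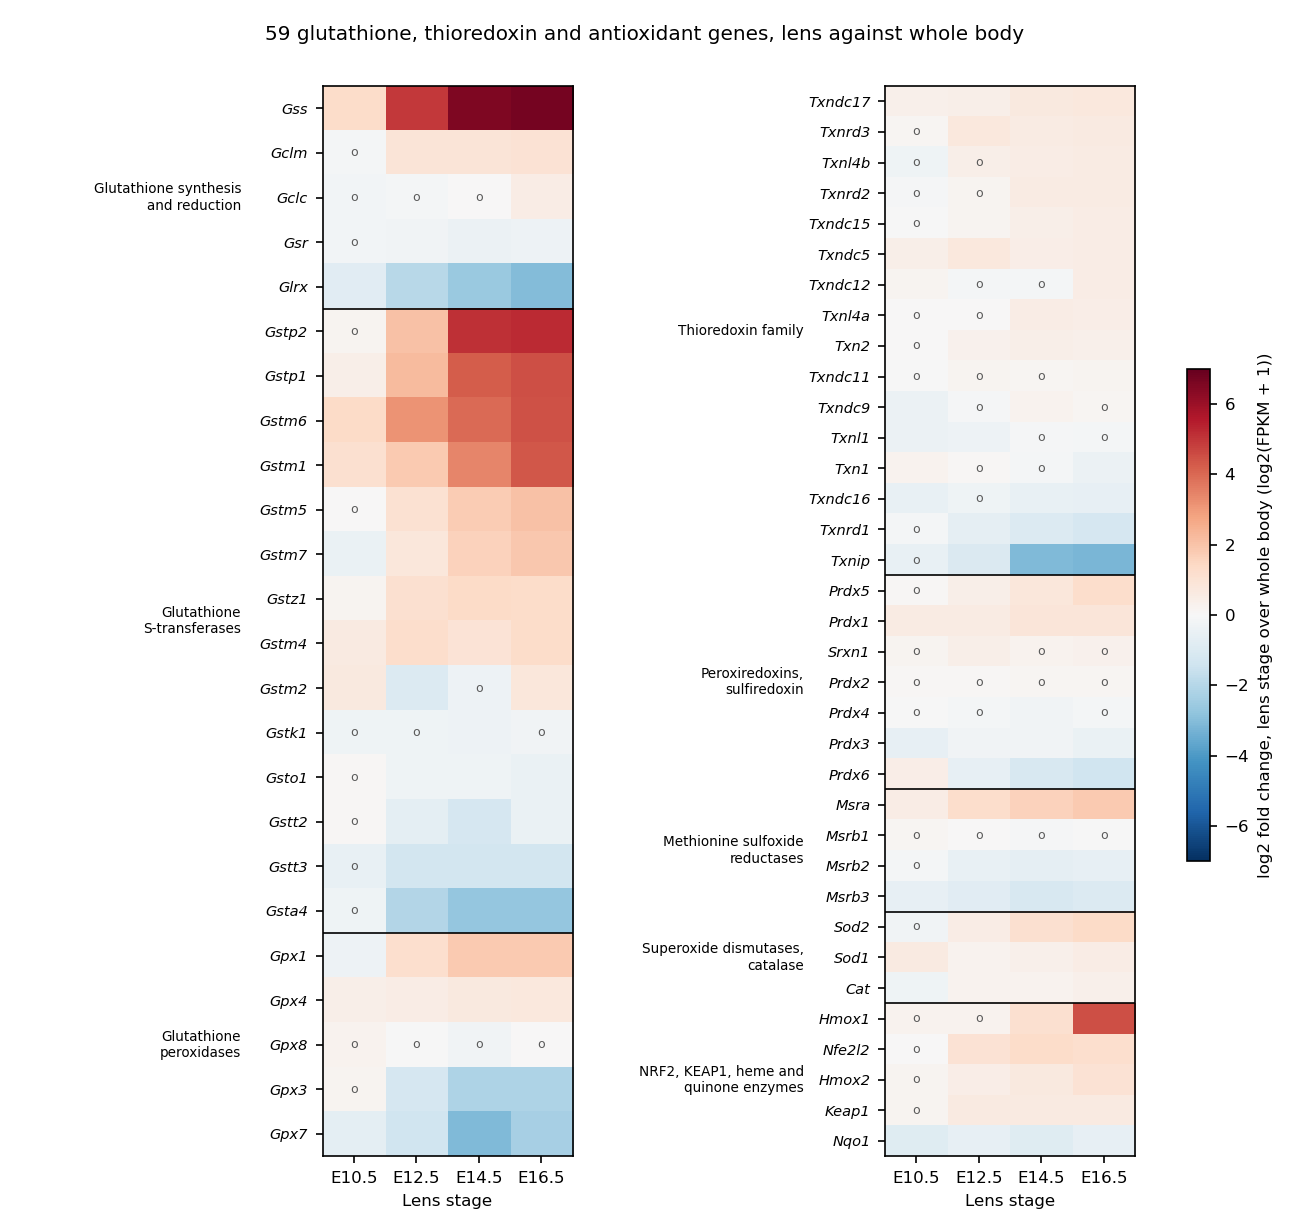
Log2 fold change of each of the 59 genes in each lens stage (columns) over whole body, on the log2(FPKM + 1) scale, grouped by family and ordered by the E16.5 value. Red is higher in lens, blue lower, and a small circle marks a difference limma did not call. The deepest red is Gss, 6.71 ± 0.16 at E16.5, and the deepest blue at E16.5 is Txnip, -3.19 ± 0.22.

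Of glutathione synthesis, the final enzyme carried the change. Gss (chromosome 2, 155563181 to 155592810, minus strand, GRCm38/mm10, protein coding) measured 21.2, 16.9 and 21.2 FPKM at E10.5, 193, 282 and 344 at E12.5, 748, 833 and 816 at E14.5, 879, 969.8 and 844 at E16.5, and 6.80, 8.11 and 7.92 in whole body. All 3 libraries of each lens stage lay above all whole-body libraries, and no stage overlapped another. The log2 fold change (± SE, on log2(FPKM + 1), which understates the change of low genes) was 1.26 ± 0.16 at E10.5 against whole body and 6.71 ± 0.16 at E16.5 (limma adjusted p = 2.41e-14). The rise came as 3.69 ± 0.16 from E10.5 to E12.5 and 1.58 ± 0.16 from E12.5 to E14.5, and 0.17 ± 0.16 to E16.5 was not called. One of its start sites carried 98.6% ± 0.10 of the Gss level at E16.5 and 97.7% ± 1.27 in whole body. The 250 bases before the RefSeq start of Gss, shown since Gss had the highest level of all members at E16.5, are chr2:155592811-155593060 (minus strand, GRCm38.p6, RefSeq), printed 5′ to 3′:
Gss promoter: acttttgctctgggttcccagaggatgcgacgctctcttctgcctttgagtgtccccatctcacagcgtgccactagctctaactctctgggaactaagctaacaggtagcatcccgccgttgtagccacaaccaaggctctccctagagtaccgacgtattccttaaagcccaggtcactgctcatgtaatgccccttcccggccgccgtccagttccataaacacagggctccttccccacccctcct
No capitals appear there, because neither motif searched (the antioxidant response element TGACNNNGC that NRF2 with a small MAF protein binds, or the shorter MAF site TGCTGAC, both strands) was found in this window.

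The ligase that precedes Gss changed less. Gclm (chromosome 3, 122245557 to 122270732, plus strand) measured 29.4, 27.1 and 24.1 FPKM at E10.5, 51.4, 55.7 and 62.0 at E12.5, 52.8, 58.8 and 58.3 at E14.5, 56.4, 60.4 and 61.5 at E16.5, and 30.2, 28.8 and 28.9 in whole body. Its whole-body and E10.5 libraries lay side by side and those of E12.5 and later were all higher. The log2 fold change of Gclm was 1.04 ± 0.08 from E10.5 to E12.5 (limma adjusted p = 1.37e-07) and 0.997 ± 0.08 at E16.5 against whole body. Gclc, the catalytic subunit, measured 32.3, 31.6 and 30.6 FPKM at E10.5, 32.0, 32.6 and 35.0 at E12.5, 32.0, 40.1 and 37.4 at E14.5, 55.0, 49.7 and 53.7 at E16.5, and 37.9, 33.8 and 37.0 in whole body. It rose late, by 0.53 ± 0.08 from E14.5 to E16.5, with no overlap between the stages, and 1 of its start sites went from 42.7% ± 4.69 of the gene's level to 59.4% ± 9.37. At E16.5 the deposited Gss level was thus 17.0 times that of Gclc, against 0.21 times in whole body. Glutathione reductase (Gsr), which restores reduced glutathione, measured 33.5 ± 2.73 FPKM at E10.5, 30.04 ± 1.20 at E16.5 and 39.1 ± 2.62 in whole body. It was lower than whole body at E16.5 by -0.37 ± 0.10 on the log2 scale, with no call between lens stages. Glutaredoxin (Glrx), which uses glutathione to release glutathione from proteins, measured 7.14, 6.01 and 9.37 FPKM at E10.5, 3.89, 2.71 and 2.17 at E12.5, 1.08, 1.58 and 1.65 at E14.5, 1.79, 0.90 and 0.11 at E16.5, and 14.6, 12.8 and 13.9 in whole body. Every lens library was below every whole-body library, and the log2 fold change at E16.5 was -3.03 ± 0.27.

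**Figure D3:**
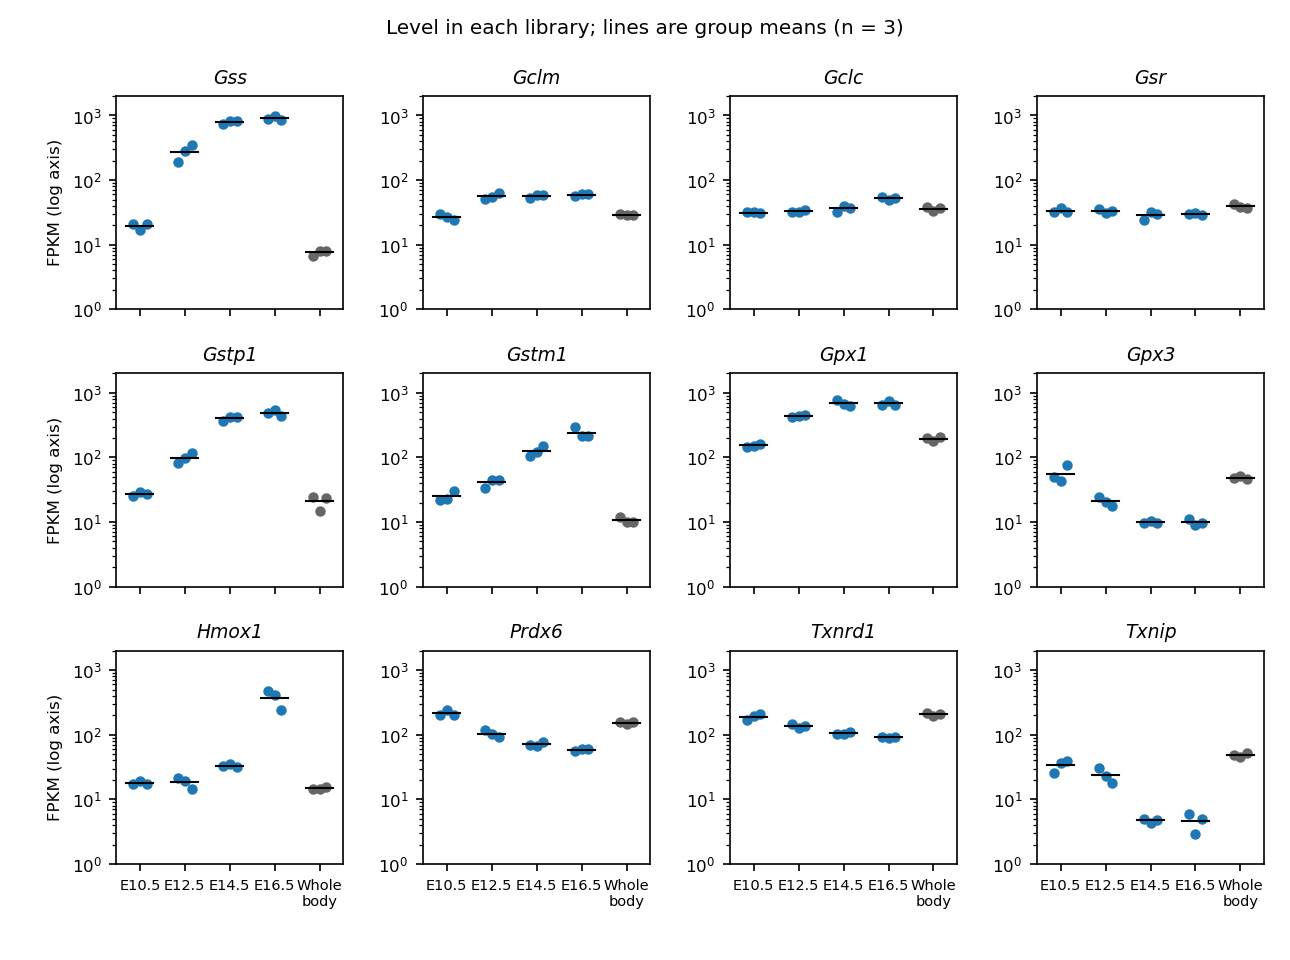
FPKM (log axis) of 12 members in each library of the 4 lens stages (blue) and whole body (grey), with lines at the mean of 3 libraries. Gss climbs from 19.7 ± 2.47 to 898 ± 65.0 FPKM, Gstp1, Gstm1 and Gpx1 climb beside it, Hmox1 steps up only at E16.5, and Gpx3, Prdx6, Txnrd1 and Txnip descend.

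Among the 14 S-transferases, 9 were higher and 4 lower than whole body at E16.5 (36.8% and 43.4% of all genes), with a median log2 fold change of 1.30, and 8 were higher in all 4 scalings tried. The pi and mu classes held most of the added level. The pi class (Gstp1 and Gstp2) went from 27.5 ± 1.74 FPKM at E10.5 to 527 ± 64.9 at E16.5 (20.9 ± 5.11 in whole body) and the mu class (6 Gstm genes) from 114 ± 12.4 to 579.8 ± 45.2 (92.2 ± 5.34). The other 6 transferases together stood at 111 ± 7.46 and 99.7 ± 5.24 FPKM. Pi and mu genes thus held 43.6% ± 3.18 and 48.1% ± 3.16 of the transferase level at E16.5, against 9.09% ± 1.84 and 40.3% ± 1.02 in whole body.

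**Figure D4:**
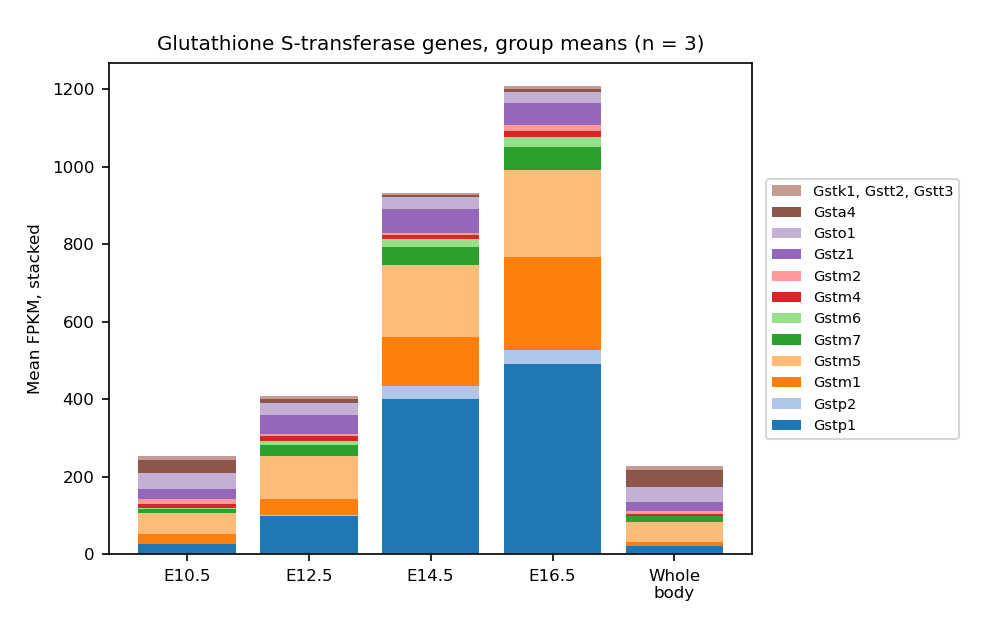
Mean FPKM of the 14 S-transferase genes stacked by group (linear axis from 0, n = 3 libraries a group). The stack grows from 253 FPKM at E10.5 to 1207 at E16.5, almost all of it in Gstp1 (blue), Gstm1 and Gstm5 (orange tones).

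Gstp1 (chromosome 19, 4035407 to 4037985, minus strand) measured 25.6, 28.9 and 27.5 FPKM at E10.5, 80.5, 98.9 and 117 at E12.5, 365, 422 and 415 at E14.5, 489, 549.9 and 431 at E16.5, and 24.4, 15.1 and 23.2 in whole body. The E10.5 libraries were just above those of whole body, and each later stage up to E14.5 lay above the one before. Its log2 fold change was 1.80 ± 0.16 from E10.5 to E12.5, 2.02 ± 0.16 from E12.5 to E14.5 and 4.51 ± 0.16 at E16.5 against whole body (limma adjusted p = 2.23e-12). Its neighbour Gstp2 (4040285 to 4046023, same strand) measured 0.05, 0.19 and 0.22 FPKM at E10.5, 2.33, 3.59 and 4.12 at E12.5, 29.4, 37.4 and 36.9 at E14.5, 35.4, 43.9 and 33.1 at E16.5, and 0.04, 0 and 0 in whole body. It was at or near 0 in whole body and E10.5 and rose by 3.05 ± 0.17 from E12.5 to E14.5. The coding sequences of the pair differ at 12 of 633 bases (98.1% identity) and share a run of 303 identical bases, so how the authors' counting split reads between them is uncertain, and their sum is the firmer value. Their first 60 coding bases hold 6 of the differences, shown in capitals (GENCODE vM21):
Gstp1: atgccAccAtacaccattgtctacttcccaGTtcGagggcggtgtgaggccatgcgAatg
Gstp2: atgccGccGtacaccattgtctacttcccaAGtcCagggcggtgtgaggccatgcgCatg
The promoters of the pair each hold 1 MAF site, read on the other strand as the capitals below, 71 bases before the RefSeq start of Gstp1 (window chr19:4037965-4037994, minus strand) and 86 bases before that of Gstp2 (chr19:4042289-4042318, minus strand):
Gstp1 site: caacgtgttgaGTCAGCAtccggggcggag
Gstp2 site: caacgtgttgaGTCAGCAtccggggcggca
That MAF site occurs in 4.67% of the 32851 RefSeq promoters of the same length (300 bases), and it shares the letters TGAC with the longer element. Both sites of the pair lie inside the GENCODE gene spans given above, since the RefSeq starts used here lie further downstream than the GENCODE gene ends on this strand.

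Of the mu class, Gstm1 was the highest at E16.5 and measured 21.6, 23.0 and 29.98 FPKM at E10.5, 34.1, 45.2 and 44.4 at E12.5, 105, 122 and 148 at E14.5, 290.5, 214 and 211 at E16.5, and 11.8, 10.02 and 9.97 in whole body. Each stage lay above the one before, and it was 1 of the few members still rising at the end, by 0.93 ± 0.16 from E14.5 to E16.5. At E16.5 it was 4.36 ± 0.16 above whole body (limma adjusted p = 3.40e-12). Gstm5 measured 47.8, 61.5 and 55.2 FPKM at E10.5, 105, 111 and 119.6 at E12.5, 175, 194 and 188 at E14.5, 216, 239 and 222 at E16.5, and 53.5, 50.9 and 55.5 in whole body. Its E10.5 and whole-body libraries overlapped, and all later stages were higher, by 2.06 ± 0.08 at E16.5. Gstm7 measured 8.67, 12.3 and 10.8 FPKM at E10.5, 20.9, 27.4 and 31.2 at E12.5, 46.2, 46.7 and 50.8 at E14.5, 58.3, 54.9 and 62.1 at E16.5, and 14.8, 13.3 and 16.4 in whole body. It started below whole body at E10.5 (-0.46 ± 0.14, a call lost in some scalings) and ended above it (1.91 ± 0.14). Gstm6 measured 2.50, 2.02 and 2.23 FPKM at E10.5, 8.98, 11.3 and 11.4 at E12.5, 16.7, 16.7 and 24.0 at E14.5, 30.8, 25.9 and 26.8 at E16.5, and 0.40, 0.18 and 0.31 in whole body. It was under 1 FPKM in all whole-body libraries and rose in each lens step, by 1.83 ± 0.16, 0.79 ± 0.16 and 0.54 ± 0.16, the last of these called only in some settings.

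Other transferases took other courses. Gstm4 measured 8.56, 8.57 and 9.50 FPKM at E10.5, 13.8, 14.3 and 14.8 at E12.5, 12.7, 13.6 and 8.30 at E14.5, 19.4, 13.9 and 12.1 at E16.5, and 4.64, 5.08 and 6.80 in whole body, and was above whole body by 1.30 ± 0.19 at E16.5. Gstm2 measured 11.00, 15.4 and 12.49 FPKM at E10.5, 3.81, 4.34 and 2.51 at E12.5, 5.90, 5.01 and 6.79 at E14.5, 17.2, 10.4 and 15.8 at E16.5, and 7.58, 7.20 and 8.31 in whole body. It dipped by -1.63 ± 0.20 from E10.5 to E12.5 and was back near its first level at E16.5, 1.14 ± 0.20 above E14.5. The mu genes are 69.5% to 86.0% identical in coding sequence, so reads may be shared among them too. Gsta4, the alpha-class enzyme that conjugates the lipid peroxidation product hydroxynonenal, measured 27.3, 40.6 and 34.4 FPKM at E10.5, 11.1, 10.8 and 6.66 at E12.5, 5.30, 4.83 and 6.70 at E14.5, 6.85, 4.84 and 5.46 at E16.5, and 44.4, 39.9 and 42.2 in whole body. It fell by -1.75 ± 0.19 from E10.5 to E12.5, and its E16.5 libraries were all below those of whole body (-2.69 ± 0.19). Gstz1, which isomerises maleylacetoacetate in tyrosine breakdown, went from 26.5 ± 0.77 FPKM at E10.5 to 58.2 ± 1.47 at E16.5 (22.9 ± 1.46 in whole body). The rise was 1.11 ± 0.07 on the deposited scale, and its call held in all 4 scalings. Gsto1, an omega-class enzyme, fell from 40.3 ± 2.79 to 28.0 ± 3.93, by -0.52 ± 0.10. Gstk1 and Gstt2 stayed under 7 FPKM in every group mean, and Gstt3 was listed at 0 in all libraries from E12.5 on.

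The 5 glutathione peroxidases split into rising and falling genes. Gpx1, the cytosolic enzyme that reduces hydrogen peroxide, measured 147, 149 and 163 FPKM at E10.5, 427, 436 and 449 at E12.5, 779, 661 and 616 at E14.5, 651, 756 and 643 at E16.5, and 197, 178 and 206 in whole body. At E10.5 all 3 lens libraries were below whole body (-0.34 ± 0.09) and from E12.5 all were above, by 1.81 ± 0.09 at E16.5 (limma adjusted p = 1.18e-10). Gpx4, which reduces lipid hydroperoxides in membranes, measured 136, 161 and 156 FPKM at E10.5, 174, 178 and 152 at E12.5, 217, 173 and 174 at E14.5, 200.4, 202 and 186 at E16.5, and 113, 112 and 121 in whole body. Its lens libraries all lay above whole body, by 0.76 ± 0.09 at E16.5, while its change along the lens from E10.5 (0.38 ± 0.09) turned negative with the crystallins left out and under quantile normalization. Gpx3, the secreted plasma form, measured 50.3, 42.8 and 75.9 FPKM at E10.5, 24.2, 20.5 and 17.9 at E12.5, 9.75, 10.4 and 9.66 at E14.5, 10.9, 9.12 and 9.77 at E16.5, and 47.4, 52.1 and 45.8 in whole body. Its E10.5 and whole-body libraries overlapped and all later ones were lower, with -1.36 ± 0.16 and -0.99 ± 0.16 in the first 2 lens steps. Gpx7, which resides in the endoplasmic reticulum, measured 6.87, 10.9 and 10.8 FPKM at E10.5, 7.31, 4.89 and 3.76 at E12.5, 0.72, 1.02 and 0.96 at E14.5, 2.21, 1.80 and 2.85 at E16.5, and 14.8, 15.9 and 15.5 in whole body. It was lowest at E14.5, and at E16.5 stood -2.33 ± 0.21 against whole body. Gpx8, its close relative in the same compartment, was between 31.8 and 45.9 FPKM in all group means. Sums of mesenchyme, erythroid and macrophage markers were lower in every E14.5 and E16.5 library than in any earlier lens library. In the first step, where Gpx3 fell most, the erythroid sum went from 2231 to 5113 to 3733 to 8224 FPKM and the macrophage sum from 144 to 166 to 108 to 209. The mesenchyme sum went from 293, 292 and 2755 FPKM (E10.5 replicates 1 to 3) to 1187, 476 and 339 (E12.5 replicates 1 to 3). In the same order, the sum of 9 markers listed for hepatocytes went from 563, 23.1 and 1066 to 19.7, 25.6 and 22.9. The part of these cells in the falls of Gpx3 and Gpx7 was not tested.

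Gpx1, Gpx3, Gpx4, Msrb1 and the 3 thioredoxin reductases are selenoproteins: an in-frame TGA is read as selenocysteine in their active site. A search of the coding sequences of all 59 members (GENCODE vM21, longest complete reading frame among the listed transcripts) found such a codon in these 7 genes. They are shown because members that share this residue moved in opposite directions, Gpx1 up and Txnrd1 down. The codon is in capitals.
Gpx1, codon 47 of 201: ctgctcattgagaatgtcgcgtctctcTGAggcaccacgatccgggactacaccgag
Gpx4, codon 129 of 253: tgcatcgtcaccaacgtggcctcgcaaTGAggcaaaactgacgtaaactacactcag
Gpx3, codon 73 of 226: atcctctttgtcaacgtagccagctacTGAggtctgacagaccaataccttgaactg
Msrb1, codon 95 of 116: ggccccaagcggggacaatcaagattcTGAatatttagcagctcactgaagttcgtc
Txnrd1, codon 498 of 499: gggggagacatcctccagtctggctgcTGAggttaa
Txnrd2, codon 526 of 527: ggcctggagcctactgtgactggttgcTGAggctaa
Txnrd3, codon 614 of 615: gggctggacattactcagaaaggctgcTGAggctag
In the reductases the codon is the last but one before the stop, and in the others it lies inside the protein.

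The summed FPKM of the thioredoxin family was steadier, though its share of the FPKM outside the crystallins fell from 0.143% at E10.5 to 0.101% at E16.5. At E16.5 against whole body 10 of 16 were higher and 4 lower (36.8% and 43.4% of all genes), with a median of 0.43 on the log2 scale. Txndc17 alone was higher in all 4 scalings, and the 4 lower calls (Txn1, Txnip, Txnrd1 and Txndc16) held in all 4. Leaving out the crystallins moved the median of all genes by -0.48 there, which favours lower calls. No share of all genes kept in the 4 scalings stands beside these counts, so they do not set the thioredoxin genes apart. Txn1, the cytosolic thioredoxin that passes electrons to peroxiredoxins and other targets, measured 139.6, 165 and 149.8 FPKM at E10.5, 144, 137 and 124 at E12.5, 124, 111 and 119 at E14.5, 91.0, 95.1 and 105 at E16.5, and 133, 121 and 132 in whole body. The E16.5 libraries were below all others, -0.41 ± 0.08 against whole body and -0.64 ± 0.08 against E10.5. The last step, -0.28 ± 0.08 from E14.5, was the only fall called there and was lost in several settings. Its reductase Txnrd1 measured 171, 195 and 207 FPKM at E10.5, 146, 125 and 136 at E12.5, 103, 103 and 108 at E14.5, 92.1, 90.0 and 92.5 at E16.5, and 218, 196 and 207 in whole body. Whole body and E10.5 overlapped and each later stage was lower than the one before, reaching -1.17 ± 0.07 at E16.5 (limma adjusted p = 1.50e-09). The mitochondrial pair stood apart from these: Txn2 measured 87.2, 107 and 99.4 FPKM at E10.5, 117, 119.9 and 121 at E12.5, 109.8, 129 and 136 at E14.5, 122.6, 126 and 119.7 at E16.5, and 94.1, 92.7 and 97.9 in whole body, higher than whole body by 0.37 ± 0.08 at E16.5, a direction that flipped with the crystallins left out. Txnrd2, its reductase, went from 12.1 ± 1.53 FPKM at E10.5 to 19.5 ± 2.27 at E16.5 (0.65 ± 0.12, a call lost in some scalings).

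Txnip, the protein that binds and inhibits thioredoxin and limits glucose uptake, had the largest fall at E16.5 among members of at least 10 FPKM. It measured 26.0, 37.0 and 39.3 FPKM at E10.5, 31.1, 23.0 and 17.9 at E12.5, 5.01, 4.27 and 4.88 at E14.5, 5.96, 2.88 and 4.94 at E16.5, and 48.4, 45.8 and 51.5 in whole body. The E14.5 and E16.5 libraries were all under 6 FPKM and all others above 17. From E12.5 to E14.5 it fell by 2.10 ± 0.22 on the log2 scale, and at E16.5 it stood -3.19 ± 0.22 against whole body. Of the proteins with thioredoxin domains, Txndc5, an endoplasmic reticulum disulfide isomerase, measured 169.6, 188 and 224 FPKM at E10.5, 241, 221 and 255 at E12.5, 192, 212 and 195 at E14.5, 199.7, 199 and 215 at E16.5, and 147, 138 and 144 in whole body. It was above whole body at E10.5 (0.43 ± 0.09) and peaked at E12.5, all lens libraries lay above all whole-body libraries, and it then fell from E12.5 to E14.5 (-0.26 ± 0.09), a call lost without any 1 of 4 libraries (E12.5 or E14.5, replicate 1 or 3). Txndc12, of the same compartment, measured 48.2, 53.1 and 50.8 FPKM at E10.5, 45.1, 37.3 and 38.7 at E12.5, 42.4, 38.1 and 41.1 at E14.5, 61.5, 67.4 and 61.3 at E16.5, and 42.9, 44.9 and 45.0 in whole body, with E16.5 above all other groups and a last step of 0.63 ± 0.08. Txndc16 measured 13.3, 11.9 and 16 FPKM at E10.5, 20.7, 12.7 and 15.7 at E12.5, 12, 13.2 and 15.1 at E14.5, 13.4, 12.47 and 14.4 at E16.5, and 22.0, 18.1 and 20.8 in whole body, below whole body at E16.5 by -0.56 ± 0.16. Txnl1, a thioredoxin-like protein of the proteasome, measured 81.3, 98.5 and 86.4 FPKM at E10.5, 96.7, 92.7 and 90.4 at E12.5, 109.5, 109 and 110.0 at E14.5, 99.1, 115 and 103 at E16.5, and 126, 111 and 117 in whole body, and was below whole body at E10.5 (-0.41 ± 0.08) but not called at E16.5. Of the other family members, Txndc17 was higher at E16.5 by 0.74 ± 0.08, and Txndc9, Txndc11, Txndc15, Txnl4a, Txnl4b and Txnrd3 had group means between 6.65 and 86.6 FPKM.

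Peroxiredoxins, which reduce peroxides with electrons from thioredoxin, had with sulfiredoxin the highest summed level of the 8 families at E10.5. In whole body they stood at 1029 ± 54.2 FPKM, beside 1056 ± 39.3 for the thioredoxin family. Prdx2, known from red cells and neurons, measured 429, 525 and 511 FPKM at E10.5, 519, 495 and 441 at E12.5, 522, 462 and 512 at E14.5, 503, 547 and 499 at E16.5, and 478, 432 and 476 in whole body. Its lens stages overlapped each other and only E16.5 lay wholly above whole body, and none of the 8 comparisons was called. Prdx1 measured 341, 390.4 and 381 FPKM at E10.5, 364, 377 and 358 at E12.5, 469, 429 and 461 at E14.5, 422, 481 and 450.3 at E16.5, and 269.9, 233 and 248 in whole body. All lens libraries were above all whole-body libraries, by 0.56 ± 0.08 at E10.5 and 0.85 ± 0.08 at E16.5. Prdx6, the 1-cysteine member that draws on glutathione through the pi transferase, measured 205, 239.7 and 200.3 FPKM at E10.5, 118, 101 and 92.0 at E12.5, 69.6, 67.2 and 78.1 at E14.5, 56.5, 59.8 and 59.99 at E16.5, and 157, 147 and 158 in whole body. It began above whole body (0.47 ± 0.09), fell at E12.5 (-1.05 ± 0.09) and E14.5 (-0.52 ± 0.09), and ended below (-1.37 ± 0.09), with no overlap at any of these points. Prdx3, the mitochondrial form, measured 36.0, 41.0 and 35.7 FPKM at E10.5, 49.4, 47.5 and 49.2 at E12.5, 43.8, 46.8 and 51.6 at E14.5, 45.4, 42.1 and 36.7 at E16.5, and 59.9, 55.4 and 56.3 in whole body, and was below whole body in every lens stage (-0.59 ± 0.09 at E10.5 and -0.46 ± 0.09 at E16.5). Prdx5, found in mitochondria and peroxisomes, rose from 34.4 ± 3.90 FPKM at E10.5 to 75.9 ± 1.88 at E16.5. The rise was 1.13 ± 0.08 on the deposited scale, and its call held in all 4 scalings. Prdx4, of the endoplasmic reticulum, and sulfiredoxin (Srxn1), which repairs over-oxidised peroxiredoxins, were not called at E16.5 against whole body or E10.5, with 54.3 ± 2.32 and 17.3 ± 1.14 FPKM at E16.5 and 59.1 ± 3.04 and 14.0 ± 0.49 in whole body.

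Methionine sulfoxide reductases, which repair oxidised methionine, moved apart. Msra, which acts on the S form, rose from 18.2 ± 0.42 FPKM at E10.5 to 46.1 ± 2.77 at E16.5 (12.2 ± 0.87 in whole body), 1.84 ± 0.08 against whole body with no overlap. Msrb3, which acts on the R form, measured 19.1, 17.8 and 15.2 FPKM at E10.5, 19.1, 13.2 and 12.7 at E12.5, 11.2, 11.3 and 12.8 at E14.5, 13.1, 11.3 and 14 at E16.5, and 26.7, 25.6 and 26.7 in whole body. It was below whole body at every stage, by 0.58 ± 0.14 at E10.5 (a value that reversed when only reference transcripts were kept) and 0.98 ± 0.14 at E16.5. Msrb1 and Msrb2 had group means between 3.71 and 14.4 FPKM, with Msrb1 not called at E16.5 against whole body or E10.5.

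The enzymes that remove superoxide and hydrogen peroxide directly were present throughout. Sod1, the cytosolic copper-zinc dismutase, measured 178, 203 and 218 FPKM at E10.5, 156, 155 and 144 at E12.5, 149, 158 and 174 at E14.5, 183, 188 and 185 at E16.5, and 139.8, 119 and 122 in whole body. Its E10.5 libraries all lay above whole body, by 0.65 ± 0.08, and it fell by 0.39 ± 0.08 to E12.5. Sod2, the mitochondrial manganese enzyme, went from 30.5 ± 4.07 FPKM at E10.5 over 52.2 ± 6.59 and 79.4 ± 12 to 92.8 ± 6.84 at E16.5 (35.5 ± 1.61 in whole body). It was 1.36 ± 0.12 above whole body at E16.5 on the deposited scale, and the call held in all 4 scalings. Catalase (Cat), the peroxisomal enzyme, measured 71.7, 76.98 and 88.0 FPKM at E10.5, 114, 113 and 117 at E12.5, 101, 128 and 117 at E14.5, 115, 132 and 115 at E16.5, and 95.8, 94.9 and 94.9 in whole body. It was below whole body at E10.5 (-0.27 ± 0.09, a call lost without E10.5 replicate 1), rose by 0.54 ± 0.09 to E12.5, and its E16.5 difference of 0.33 ± 0.09 changed sign with the crystallins left out. Sod3 was not analysed here.

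Nfe2l2, which encodes NRF2, measured 34.0 ± 0.70 FPKM at E10.5, then 68.9 ± 9.51, 82.8 ± 4.64 and 75.5 ± 7.98 at the following stages, and 33.0 ± 1.69 in whole body. The rise, 0.99 ± 0.10 in the first lens step (limma adjusted p = 8.15e-07), stood beside the 1.04 ± 0.08 of Gclm in that step. Keap1, its inhibitor, went from 36.4 ± 2.20 to 49.8 ± 3.74 FPKM in that step, by 0.44 ± 0.09. Nqo1, the quinone reductase that is a standard target of NRF2, stayed between 2.12 and 4.53 FPKM and was highest in whole body. Of the 50 members with a promoter in the RefSeq table (68 promoters of 300 bases, 250 before and 50 after the start), 11 held the antioxidant response element, and 16.2% of their promoters did, beside 12.4% of all 32851. The 11 were Gclm, Gstm5, Gstm7, Msrb2, Nfe2l2, Prdx1, Sod1, Srxn1, Txndc5, Txndc11 and Txnrd1. They include genes that rose in the lens (Gclm, Gstm5, Gstm7), genes that fell (Txnrd1, Msrb2) and genes without a call over the lens stages (Srxn1, Txndc11). Gclm and Nfe2l2 are shown for their like course over the stages, with the match in capitals (in Gclm it is read on the other strand). Gclm is chr3:122245307-122245556, plus strand, and Nfe2l2 is chr2:75704664-75704913, minus strand (GRCm38.p6, RefSeq).
Gclm promoter: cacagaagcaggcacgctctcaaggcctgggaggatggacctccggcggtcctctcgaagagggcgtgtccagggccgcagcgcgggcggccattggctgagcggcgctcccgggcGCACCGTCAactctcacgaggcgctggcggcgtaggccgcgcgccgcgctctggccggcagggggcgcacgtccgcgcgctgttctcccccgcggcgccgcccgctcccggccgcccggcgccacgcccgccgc
Nfe2l2 promoter: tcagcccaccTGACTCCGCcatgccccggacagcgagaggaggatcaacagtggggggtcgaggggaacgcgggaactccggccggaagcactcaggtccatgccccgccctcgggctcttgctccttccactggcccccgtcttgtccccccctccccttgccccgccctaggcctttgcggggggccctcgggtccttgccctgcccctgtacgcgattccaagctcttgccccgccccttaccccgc
The matches begin 134 bases before the start of Gclm and 240 before that of Nfe2l2, and whether any factor binds there was not measured.

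Hmox1, the inducible heme oxygenase that breaks heme down to biliverdin, iron and carbon monoxide, had the sharpest late change. It measured 17.5, 19.1 and 17.4 FPKM at E10.5, 21.7, 19.2 and 14.2 at E12.5, 33.1, 35.5 and 31.6 at E14.5, 477, 413 and 238 at E16.5, and 14.52, 14.3 and 15.8 in whole body. All E16.5 libraries lay far above every other library, though they spread from 238 to 477 FPKM among themselves. The step from E14.5 to E16.5 was 3.40 ± 0.20 (limma adjusted p = 6.30e-08), after 0.85 ± 0.20 in the step before. Hmox2, the constitutive form, rose from 33.2 ± 2.18 FPKM at E10.5 to 58.7 ± 6.77 at E16.5, by 0.80 ± 0.08. Macrophages are a known source of Hmox1, and red cells of its substrate: the 12 macrophage markers summed to 10.3 to 22.6 FPKM in the E14.5 libraries and 17.9, 8.35 and 17.1 at E16.5, and the 12 erythroid markers to 973, 452 and 702 and 479.7, 349 and 675. Both sums overlapped between E14.5 and E16.5. Within the erythroid sum, Hbb-bs overlapped (196 to 388 and 188 to 341 FPKM) while Hbb-y was lower at E16.5 (46.4 to 136 and 1.16 to 2.63). The part of either cell type in the Hmox1 step was not tested.

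**Figure D5:**
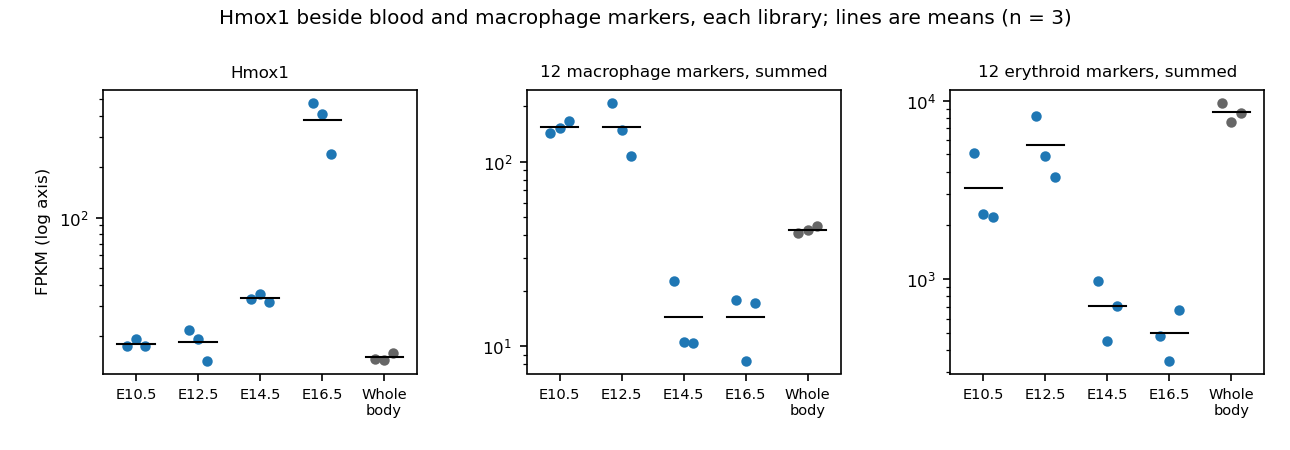
FPKM (log axes) in each library of Hmox1 (left), of 12 macrophage markers summed (middle) and of 12 erythroid markers summed (right), over the 4 lens stages and whole body. Hmox1 steps up at E16.5 (238 to 477 FPKM, against 31.6 to 35.5 at E14.5), while both marker sums at E16.5 lie in or near the range of E14.5.

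Genes around these enzymes, taken from 6 lists of genes that are not members, were compared in the same fit. At E16.5 against whole body, 36.8% of all genes were higher and 43.4% lower, with a median log2 fold change of -0.11, and the counts and medians of these lists are read beside those shares. Of 30 genes for glutathione precursors, turnover and conjugates, 14 were higher and 11 lower than whole body at E16.5 (median 0.17). Ggct, which cuts gamma-glutamyl dipeptides, was at 203 ± 23.4 FPKM against 3.72 ± 0.88 (5.44 ± 0.16), and Ggt1, which starts the breakdown of glutathione outside the cell, at 22.8 ± 3.94 against 0.96 ± 0.28 (3.60 ± 0.19). The lowest were Clic4 (-3.08 ± 0.17), a chloride channel protein with a transferase fold, and Anpep (-2.91 ± 0.25), an aminopeptidase. Along the lens, E16.5 against E10.5, Slc7a11, the cystine carrier that feeds glutathione synthesis, rose by 2.74 ± 0.19 while Mgst3, a membrane transferase, fell (-2.01 ± 0.23).

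Of 14 genes for NADPH supply, 8 were higher and 3 lower than whole body at E16.5 (median 0.37, beside 36.8% higher and 43.4% lower among all genes), led by malic enzyme Me1 (1.80 ± 0.12) and Pgls of the pentose phosphate pathway (1.54 ± 0.06), with the NAD kinases Nadk2 (-1.02 ± 0.09) and Nadk (-0.70 ± 0.09) lowest. Of 18 other genes with a thioredoxin or glutaredoxin fold, 9 were higher and 3 lower (median 0.39), with Pdia6 at 1538 ± 111 against 315 ± 8.31 FPKM (2.28 ± 0.11) and mitochondrial Glrx2 (1.90 ± 0.10) at the top. Of 9 genes for selenocysteine insertion, 6 were higher and 2 lower (median 0.37): Trnau1ap (1.13 ± 0.09) and Secisbp2l (1.12 ± 0.12) were higher, and both selenophosphate synthetases were below whole body (Sephs1 -1.10 ± 0.07, Sephs2 -0.53 ± 0.07).

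Of 21 other genes of the NRF2 and heme axis, 16 were higher and 3 lower than whole body at E16.5 (median 1.02, beside 36.8% higher and 43.4% lower among all genes). Mafg, a small MAF partner of NRF2, was at 266 ± 23.1 FPKM against 32.8 ± 3.12 (2.98 ± 0.13) and ferritin light chain Ftl1 at 2169 ± 176 against 463 ± 33.3 (2.23 ± 0.10). Bach1, a repressor of Hmox1, was lower (-1.84 ± 0.12), as was Blvrb (-2.38 ± 0.27), a biliverdin reductase abundant in red cells. Against E10.5 the related Bach2 (2.64 ± 0.13) and Blvra (2.59 ± 0.15), the main biliverdin reductase, rose most. Of 24 other antioxidant and metal-handling genes, 11 were higher and 8 lower than whole body at E16.5 (median 0.15). Ceruloplasmin (Cp) stood at 346 ± 8.61 against 3.27 ± 0.78 FPKM (6.36 ± 0.15) and the lactonase Pon2 at 647 ± 63.7 against 24.5 ± 0.31 (4.66 ± 0.13), while the metallothioneins Mt2 (-4.23 ± 0.28) and Mt1 (-3.75 ± 0.28), which bind zinc and copper, were the lowest. The counts over these 6 lists are on the deposited FPKM scale and were not recomputed in the other scalings.

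Spread among libraries of a stage was uneven. At E12.5, replicate 1 had the lowest crystallin sum (63641 FPKM, against 103190.0 and 125708), the highest sum of mesenchyme markers (1187, against 476 and 339) and the highest erythroid sum (8224, against 4864 and 3733). Genes picked here after their values were seen show the same split: in that library Gss, Gstp1, Gstm7, Sod2 and Nfe2l2 were at their lowest of the stage and Prdx6, Txnip, Gpx3 and Gpx7 at their highest. Whether the makeup of that pool set those levels was not tested.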

How the data were processed

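The authors deposited values per assembled transcript, taken here as FPKM, though they may not be divided by transcript length. The submitters' processing notes name TopHat2 2.0.9, Trimmomatic, Cuffnorm and Cufflinks, and the build mm10. The normalization setting and depth are not given in the sources used here. Each listed transcript had 2 or more libraries at 1 FPKM or above.

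FPKM was summed per symbol, leaving out 172 transcripts of class x (antisense overlap, none of a member). A minimum of 1 FPKM in any 3 libraries removed 80 genes, and 3 genes listed at 0 beside a replicate of at least 50 FPKM were left out, none a member. limma 3.58.1 (R 4.3.3) was fitted to log2(FPKM + 1) of the deposited values, 15 libraries in 1 fit with a trended prior (10 residual degrees of freedom), for 8 contrasts and an F test, with Benjamini-Hochberg adjustment over 14532 genes. The fit was tested on simulated data. Figures used matplotlib 3.10.9 and sequences Biopython 1.88 (Python 3.11.15, pandas 2.3.3).

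Members and lists were chosen with earlier results of these data known. Values in every library are given for members reaching a mean of 100 FPKM and for the 5 highest and 5 lowest called per contrast (with a mean of 10 FPKM or more in 1 of the groups), and up to 2 genes from each end of each list. Genes outside this rule are named as other members, by range or as group means. Coordinates are from GENCODE vM21 (GRCm38), and promoters from RefSeq (GRCm38.p6, 50 of 59 members, matched by symbol with chromosome 18 left out). Alternatives covered the pseudocount, filters, scaling, transcript class, the trend, a replicate block, single left-out libraries and a 2-fold minimum.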

Additional observations from a re-analysis of the deposited data

Results flagged for a closer look

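For 5 members the lens stood on opposite sides of whole body at its first and last stage, with both differences called. Both differences use the same whole-body libraries, so the gap between them is the change in the lens from E10.5 to E16.5. Its direction follows from how these genes were picked, and it is given as a description on the log2(FPKM + 1) scale (± SE). Gpx1 (2.15 ± 0.09) and Gstm7 (2.37 ± 0.14) began below whole body and ended above it, as did Cat (0.61 ± 0.09), whose E16.5 side changed sign without the crystallins. Prdx6 (-1.85 ± 0.09) and Txn1 (-0.64 ± 0.08) began above whole body and ended below it. Some E10.5 sides were less firm: the call of Cat was lost without E10.5 replicate 1, and that of Gstm7 in some scalings and with some single libraries left out. Txn1 stood at 151 ± 12.6 FPKM at E10.5, beside 129 ± 6.43 in whole body. Prdx6 draws on glutathione where Txn1 serves the other peroxiredoxins, and Gpx1 is the main cytosolic glutathione peroxidase.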

How the results depend on the processing

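Without the crystallins (one common total), members lower than whole body numbered 17 (E10.5), 29 (E14.5) and 26 (E16.5), with 20 higher at the last stage. In the lens the same setting gave 11 higher and 28 lower from E12.5 to E14.5, 18 and 26 for E16.5 against E10.5, and 4 lower from E14.5 to E16.5. Upper quartile scaling gave 13 lower from E12.5 to E14.5 and 3 lower in the last step, and quantile normalization 2 lower there. Shares of all genes called were not taken in these scalings. With a 2-fold minimum, higher and lower members against whole body numbered 3 and 0, 11 and 6, 13 and 9, and 15 and 8 from E10.5 to E16.5, and in the lens steps 8 and 5, 4 and 2, and 2 and 0, with 15 and 7 for E16.5 against E10.5. The single fall of the last step was 0 with reference transcripts only and with eBayes without the trend. Values that reversed were Msrb3 at E10.5 against whole body with reference transcripts only (0.19), and, without the crystallins, Cat (-0.19) and Txn2 (-0.16) at E16.5 against whole body and Gpx4 for E16.5 against E10.5 (-0.10, or -0.093 under quantile normalization). The cause was not tested.

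Leaving out 1 library at a time, higher members against whole body ranged, in order of stage, from 12 to 17, 25 to 27, 29 to 32 and 33 to 35, and lower members from 7 to 13, 15 to 19, 16 to 19 and 16 to 18. In the lens, the ranges were 23 to 26 higher and 11 to 15 lower in the first step, 18 to 22 and 5 to 10 in the second, 7 to 11 and 0 to 2 in the third, 32 to 34 and 11 to 13 between the ends, and 47 to 51 changed over the stages. The lowest count at E10.5 (7 lower) came without E10.5 replicate 1, and 5 lower in the second step without E12.5 replicate 1. In the third step the count was 0 without E14.5 replicate 1 or 3, E16.5 replicate 1 or 2 or whole-body replicate 3, and 2 without E12.5 replicate 1 or 3. Of 1815 named values refitted this way, 32 lost their call, among them Gstm6 and Txn1 in the last step, Gstm7 at E10.5 (without E10.5 replicate 1 or whole-body replicate 3) and Gstm2, Gpx7, Glrx and Txndc16 at E10.5.

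Replicate numbers were not treated as pairs in the main fit. Deviations of same-numbered libraries correlated from -0.09 to 0.24 over 30 pairs, 4 of them over 0.1. Those 4 were all among the E12.5, E14.5 and E16.5 lens libraries, for replicate 1 (0.24, 0.16 and 0.11) and replicate 2 (0.20). With 3 libraries a group these values cannot exclude a pairing. With the replicate block, 35 members were higher and 17 lower at E16.5 against whole body, and the single fall of the last step was lost (0).

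Depth limits the low genes. Values near 0, such as Gstp2 in whole body (0.04, 0 and 0 FPKM) and Gstt3 from E12.5 on (0 throughout), rest on few or no fragments. On short transcripts 1 fragment was worth 0.0373 to 0.0401 FPKM in whole body and 0.1205 in E14.5 replicate 1, the largest step.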

Other observations

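Levels of the 59 members ran from abundant to near 0 in each group. Members reaching 100 FPKM numbered 9 at E10.5, then 13, 15 and 14 at the following stages, and 10 in whole body. The median of the member means was 31.5 FPKM at E10.5 and 52.8 at E16.5 (31.3 in whole body), while the median over all genes was 19.6 and 19.8 (20.7 in whole body). Gss held the 1st place among members at E14.5 and E16.5, Gpx1 the 2nd and Prdx2 the third.

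A further shift lay in the use of start sites. Of the Gclm level, 1 start site held 27.8% ± 0.97 at E10.5, then 42.7% ± 6.13, 52.5% ± 2.94 and 47.8% ± 0.18, and whole body had 52.0% ± 1.69. For Gpx4, which is known to give cytosolic and mitochondrial forms from different starts, 1 start site went from 44.8% ± 7.29 at E10.5 to 55.0% ± 4.52 at E16.5 (55.0% ± 1.74 in whole body) and another from 53.3% ± 7.88 to 43.1% ± 3.95 (43.7% ± 1.88). These shares come from assembled transcripts, were picked after their values were seen and were not tested.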
